A study of Mus musculus with 6 samples.

Results

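Described here are 9 genes of ribosome production in D2.OR, a line of mouse breast cancer cells: the ribosomal protein genes Rps20 and Rpl30, and Polr1e, Nol6, Pop1, Brix1, Rbm28, Tex10 and Mdn1, whose products make, cut or assemble ribosomal RNA. They were chosen by name and by place, with earlier results of these data known, 9 of the 53647 gene identifiers in the deposited table. All lie near the starts of chromosomes 4 (5 genes), 6 (1 gene) and 15 (3 genes), where the values follow the gene models. Both groups were D2.OR cells that carried a lentiviral hairpin vector and were selected with puromycin. The Scram group (genotype shScram, n = 3) carried a non-targeting hairpin and the shSLX4IP group (n = 3) a hairpin against Slx4ip. All were grown for 7 days on a solid cushion of Cultrex, a basement membrane extract, after seeding at 31500 cells per cm2 in medium with 10% serum and 5% Cultrex. The comparison asks what depletion of SLX4IP, a partner of the nuclease scaffold SLX4, does to the messages of such cells. The labels call the replicates biological, with no word on separate cultures or transductions, so p-values set the difference between groups against the spread between these libraries, which may be technical.

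A ribosome is built in the nucleolus. RNA polymerase I copies the ribosomal DNA into a long precursor, the small subunit processome and RNase MRP cut it, ribosomal proteins bind it, and a chain of assembly factors and ATPases matures the large subunit before export. Growing cells spend much of their transcription on this pathway, and its genes are known as targets of MYC and of growth signalling.

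The deposited values are read counts divided by a size factor for each library. Recovered reads per library ran from 5433573 to 6693111. Outside the chromosome starts the values often did not follow the named gene: Slx4ip on chromosome 2 was at 0 in every library, which left the labels unchecked, and symbols are used below only for genes that lie in segments of high values or on the mitochondrial genome, called placed genes (462 tested). Scram A stood apart from Scram B and C. Its deposited values summed to 8.95e+06, against 5.28e+06 to 5.97e+06 in the other libraries, and 1 read was worth 1.46 there and 0.796 to 0.976 elsewhere. Of the marker lists, 1 of 16 epithelial genes could be read and tested, Grhl2, at 16.8 to 68.8 in Scram and 2.93 to 20.7 in shSLX4IP. The epithelial splicing gene Esrp1 could be read but was under the filter, at 3.65 to 13.2 in Scram and 0 to 6.34 in shSLX4IP. Of 10 fibroblast genes 1 was placed, Col1a2, at 20226 to 25022 in Scram and 239 to 302 in shSLX4IP, and 0 of the endothelial and immune genes were placed and tested. Whether a shift in cell type has a part in the differences below was not tested.

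Near-identical copies bear on how far the values of the ribosomal protein genes can be trusted. Against the coding sequence of Rpl30, 16 other annotated genes matched at 90% identity or more over at least 80% of its length, and 4 matched Rps20. All 20 are processed pseudogenes, and none of the other members had such a copy. The closest copies, each with 1 differing base over the matched length, show how little a short read can tell apart. Here are 60 bases of each pair from the GENCODE M21 transcripts, with the differing base in capitals.
Rps20: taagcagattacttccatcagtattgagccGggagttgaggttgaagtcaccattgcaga
Gm4332: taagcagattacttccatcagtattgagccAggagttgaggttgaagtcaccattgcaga
Rpl30: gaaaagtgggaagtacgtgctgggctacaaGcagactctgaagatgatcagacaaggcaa
Gm12191: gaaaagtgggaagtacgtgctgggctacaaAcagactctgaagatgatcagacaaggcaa
Both Gm4332, on chromosome 3, and Gm12191, on chromosome 11, were listed at 0 in all 6 libraries. Of the 16 copies of Rpl30, 5 were above 0 in some library, and of the 4 of Rps20, 1 was. Rpl30-ps1 on chromosome 6, 99.13% identical to Rpl30, had values of 5.86 (Scram A), 118 (Scram B) and 92.1 (Scram C), against 217, 166 and 163 for the shSLX4IP libraries, so that it was lowest in Scram A and higher in shSLX4IP, against the direction of Rpl30. Gm6607, a copy of Rps20, was listed at 61.5 to 114 over the 6 libraries, and the other 4 were at 5.57 or less. None of the 20 copies is placed, so their values cannot be read as reads of those copies, and how reads were shared out between gene and copy is not given in the sources used here.

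Promoters of 5 members are in the RefSeq table (GRCm38.p6), which gives 250 bases before and 50 after the start: Polr1e, Brix1, Rbm28, Tex10 and Mdn1. The letters CGGAAG, the core read by ETS factors such as GABPA, were searched on both strands of the 300-base windows, as were the letters CACGTG, the E-box read by MYC with MAX. CGGAAG stood in 4 of the 5 windows, against 16.9% of all 32851 windows in the table, and CACGTG in 2 of the 5 (Tex10 and Mdn1), against 7.15%. Below are the 80 bases before the RefSeq start of Polr1e (chr4:45018529-45018608, plus strand) and Brix1 (chr15:10485938-10486017, minus strand), which fell in shSLX4IP, and of Mdn1 (chr4:32657039-32657118, plus strand), which was not called. CGGAAG or its complement is in capitals.
Polr1e: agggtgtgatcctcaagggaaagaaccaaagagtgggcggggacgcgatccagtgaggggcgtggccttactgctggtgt
Brix1: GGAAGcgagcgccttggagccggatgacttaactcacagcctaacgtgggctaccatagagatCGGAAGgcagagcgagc
Mdn1: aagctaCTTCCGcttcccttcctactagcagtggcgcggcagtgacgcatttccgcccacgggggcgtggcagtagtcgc
The RefSeq starts of Polr1e and Brix1 lie inside the GENCODE M21 gene models, so the last 26 bases shown for Polr1e and the last 10 for Brix1 belong to those models. The Brix1 stretch opens with a match whose first letter falls in the first exon of Rad1, the gene on the other side, and is not shown. After the RefSeq start, the nearest matches lay at positions 26 of Polr1e, 9 of Brix1 and 27 of Tex10, shown as 17 bases each.
Polr1e: atgtcaCTTCCGgtttt
Brix1: cagaacCGGAAGtgcag
Tex10: cccccaCTTCCGggcgg
CGGAAG was thus found both in members that fell and in members that were not called. CACGTG was found only in Tex10 and Mdn1, which were not called. A match describes the letters of the window and says nothing of a bound factor.

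Of the 9 genes, 4 fell in shSLX4IP and 0 rose. Those that fell were Pop1 (RNase MRP and P), Nol6 (small subunit processome), Polr1e (RNA polymerase I) and Brix1 (large subunit assembly). The other members of large subunit assembly, Rbm28, Tex10 and Mdn1, were not called. The median log2 fold change of the 9 was -0.91, against -0.23 over the 462 placed features tested and 0.25 over all 8127 features tested. Fold changes are shSLX4IP over Scram on the log2(value + 1) scale from limma, and calls use a Benjamini-Hochberg adjusted p below 0.05 over all 8127 features. By that rule 11.3% of all features were lower and 11.7% higher, and 22.9% of placed features were lower and 17.3% higher. The groups did not overlap in 7 of the 9 genes, all 7 lower in shSLX4IP, against 23.4% of all features and 39.4% of placed features in that direction. The members were chosen with earlier results known, so these counts and shares describe them and do not test the list. Values of single libraries are listed below in the order A, B, C for each group. In bulk RNA, fewer cells of a type and less RNA per cell cannot be told apart. The count of members that fell was 7 without Scram A, 3 without Scram C, 2 without either shSLX4IP A or shSLX4IP C, and 3 without shSLX4IP B. Over all features the count lower moved as well, from 920 to 1573 without Scram A and to 489 without Scram C. It was 418, 410 and 411 without shSLX4IP A, B and C. These shifts are thus not particular to the members.

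**Figure D1:**
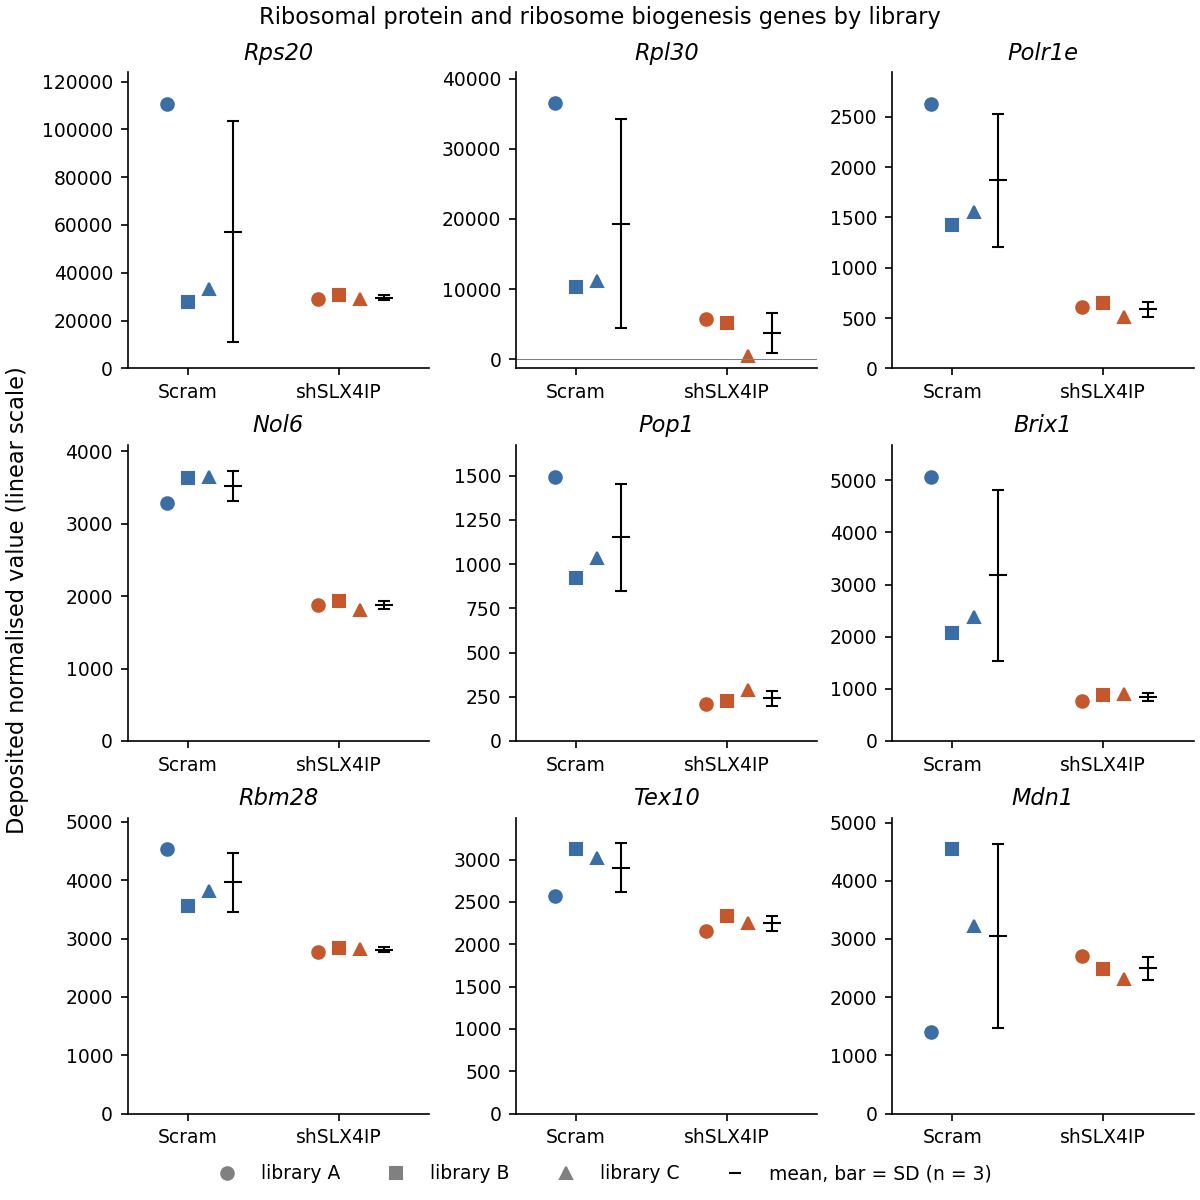
Deposited normalised value of each of the 9 genes (y axis, linear) in the 6 libraries, with circles, squares and triangles for libraries A, B and C, and the mean with its SD (n = 3) beside each group. The 3 shSLX4IP libraries lie below all 3 Scram libraries in each gene other than Rps20 and Mdn1, and Scram A is far above Scram B and C in Rps20, Rpl30 and Brix1.

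RNA polymerase I makes the precursor of ribosomal RNA, and Polr1e (ENSMUSG00000028318.15, GRCm38 chromosome 4, 45018583 to 45036565, plus strand) encodes one of its subunits, the counterpart of yeast A49. Polr1e was at 2627, 1425 and 1555 in the Scram libraries and at 605, 653 and 507 in the shSLX4IP libraries. Each shSLX4IP value lay below the lowest Scram value, and Scram A was the highest. The mean fell from 1869 ± 660 to 588 ± 74.4 (SD, n = 3 each), a log2 fold change of -1.62 (SE 0.28, limma adjusted p = 0.0124). The values rested on 637 to 1794 reads per library. The call was lost without shSLX4IP A (adjusted p = 0.0556) and without shSLX4IP C (adjusted p = 0.0610). With a replicate block by column letter it was lost as well (limma adjusted p = 0.0510). Against Scram B and C alone the shSLX4IP mean was 60.5% lower. No exon of another annotated gene overlaps those of Polr1e.

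Nol6 (ENSMUSG00000028430.15, chromosome 4, 41114427 to 41124455, minus strand) encodes nucleolar protein 6, a part of the small subunit processome that works on the precursor as it is made. Nol6 was at 3283, 3630 and 3648 in the Scram libraries and at 1880, 1926 and 1811 in the shSLX4IP libraries. Both groups were tight and far apart, and Scram A was here the lowest of its group. The mean fell from 3520 ± 206 to 1872 ± 57.8 (log2 fold change -0.91, SE 0.12, limma adjusted p = 0.00519). The call held without any 1 of the 6 libraries. It was lost after quantile normalization, where the log2 fold change was -0.46 (adjusted p = 0.151), and when reads were scaled to the total of each library, where it was -0.56 (adjusted p = 0.139). With a replicate block by column letter the call was lost as well (limma adjusted p = 0.0599).

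Pop1 (ENSMUSG00000022325.15, chromosome 15, 34495304 to 34530648, plus strand) encodes the large protein subunit shared by RNase MRP, which cuts ribosomal RNA precursors, and RNase P, which trims transfer RNAs. Pop1 was at 1494, 922 and 1034 in the Scram libraries and at 211, 226 and 289 in the shSLX4IP libraries. The lowest Scram library was far above the highest shSLX4IP library. The mean fell from 1150 ± 303 to 242 ± 41.4, 4.76-fold lower (log2 fold change -2.23, SE 0.25, limma adjusted p = 0.00334). Recovered reads were 987 to 1135 in Scram and 231 to 363 in shSLX4IP. Among the members called it had the lowest fold change, and it kept its call in all 21 alternative settings, with a log2 fold change of -2.37 to -1.88. It lies on chromosome 15 close to Rpl30, and no exon of another annotated gene overlaps its own.

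Large subunit assembly was represented by Brix1, Rbm28, Tex10 and Mdn1, and of these Brix1 was called. Brix1 (ENSMUSG00000022247.13, chromosome 15, 10474779 to 10485947, minus strand) encodes a nucleolar protein that binds early large subunit precursors. It was at 5068, 2073 and 2381 in the Scram libraries and at 766, 879 and 909 in the shSLX4IP libraries. Scram A was well above Scram B and C, and all 3 lay above the shSLX4IP libraries. The mean fell from 3174 ± 1648 to 851 ± 75.2 (log2 fold change -1.78, SE 0.36, limma adjusted p = 0.0210). The call was lost without Scram C (adjusted p = 0.0506) and without shSLX4IP A, B or C (adjusted p = 0.0890, 0.0849 and 0.0811). With a replicate block by column letter it was lost as well (limma adjusted p = 0.0710). With Scram A left out the call was kept at a log2 fold change of -1.39 (adjusted p = 0.00117). Against Scram B and C alone the shSLX4IP mean was 61.8% lower.

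Rad1, of the 9-1-1 DNA damage clamp, is transcribed the other way, with 70 bases between the GENCODE M21 models of both genes, and it is named here after its values were seen. Rad1 was at 1459, 868 and 964 in the Scram libraries and at 634, 825 and 687 in the shSLX4IP libraries. The groups did not overlap, but the difference did not pass (log2 fold change -0.59, SE 0.25, limma adjusted p = 0.143). The difference between Brix1 and Rad1 in response was not tested.

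Rbm28 (ENSMUSG00000029701.16, chromosome 6, 29123576 to 29165006, minus strand) encodes an RNA-binding protein of large subunit assembly, the counterpart of yeast Nop4. It was at 4529, 3552 and 3814 in the Scram libraries and at 2766, 2847 and 2819 in the shSLX4IP libraries. The groups did not overlap, with means of 3965 ± 506 and 2810.5 ± 41.2, yet the log2 fold change of -0.49 (SE 0.14) missed the threshold (limma adjusted p = 0.0547). It passed in 8 of 21 alternative settings, among them without Scram A (adjusted p = 0.00702), and after quantile normalization the log2 fold change was 0.01.

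Tex10 (ENSMUSG00000028345.16, chromosome 4, 48430858 to 48473459, minus strand) encodes a subunit of the rixosome, the complex with PELP1, WDR18, LAS1L and SENP3 that takes part in removing a spacer from the large subunit precursor. It was at 2573, 3121 and 3023 in the Scram libraries and at 2160, 2330 and 2252 in the shSLX4IP libraries. The groups did not overlap, although Scram A was only slightly above shSLX4IP B. The means were 2906 ± 292 and 2247 ± 85.4 (log2 fold change -0.37, SE 0.13, limma adjusted p = 0.104), and without Scram A the gene passed (log2 fold change -0.45, adjusted p = 0.00511). Exons of Tex10 share 226 bases with those of Invs on the other strand, and Invs rose, from 567 ± 82.5 to 1906 ± 104 (log2 fold change 1.76, adjusted p = 0.00191), so that reads of the shared stretch cannot be assigned if the counting did not use strand.

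Mdn1 (ENSMUSG00000058006.13, chromosome 4, 32657119 to 32775217, plus strand) encodes midasin, a giant AAA ATPase that strips assembly factors from large subunit precursors together with the rixosome. With 16746 coding bases it was the longest of the 9. It was at 1396, 4540 and 3220 in the Scram libraries and at 2704, 2480 and 2307 in the shSLX4IP libraries. Scram A was the lowest of the 6 libraries and Scram B and C the highest, so the groups overlapped. The means were 3052 ± 1579 and 2497 ± 199 (log2 fold change -0.13, SE 0.44, limma adjusted p = 0.835, 95% interval -1.22 to 0.95). Without Scram A the log2 fold change was -0.62 and passed (adjusted p = 0.0398), and without Scram B it was 0.23.

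Of the ribosomal proteins themselves, neither was called in the limma fit over all 6 libraries. Rps20 (ENSMUSG00000028234.7, chromosome 4, 3831334 to 3835665, minus strand) encodes protein uS10 of the small subunit head. It was at 110599, 27781 and 33125 in the Scram libraries and at 28936, 30760 and 29017 in the shSLX4IP libraries. Scram A was 3.63 times the mean of Scram B and C, and the shSLX4IP values lay between those of Scram B and C. The means were 57168 ± 46349 and 29571 ± 1030.2, with a log2 fold change of -0.66 (SE 0.53, limma adjusted p = 0.386, 95% interval -1.97 to 0.65). Without Scram A the log2 fold change was -0.04 (adjusted p = 0.765), and the shSLX4IP mean was 2.90% below that of Scram B and C. Exons of Rps20 hold a snoRNA, Gm24016, which was listed at the value of 1 read in every library, 0.796 to 1.46.

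Rpl30 (ENSMUSG00000058600.14, chromosome 15, 34440505 to 34443640, minus strand) encodes protein eL30 of the large subunit. It was at 36539, 10301 and 11205 in the Scram libraries and at 5661, 5165 and 493 in the shSLX4IP libraries. Scram A was 3.40 times the mean of Scram B and C, shSLX4IP C was far under shSLX4IP A and B, and the groups did not overlap. The means were 19348 ± 14894 and 3773 ± 2852, and a log2 fold change of -2.73 with an SE of 1.08 did not pass (limma adjusted p = 0.124). With DESeq2 on recovered reads Rpl30 passed, at -2.37 (DESeq2 adjusted p = 0.0171). The low value in shSLX4IP C rested on 619 reads, against 6249 and 5291 in shSLX4IP A and B. Of 338 placed features with a mean of at least 300, Rpl30 was the only 1 that lay at least 4-fold below the mean log2 value of the other 2 libraries of its group in shSLX4IP C, among features in which those 2 lay within 0.5 log2 units of each other. Leaving out shSLX4IP C gave a log2 fold change of -1.58 (adjusted p = 0.198), and leaving out Scram A gave -2.14 (adjusted p = 0.204). With both left out it was -0.99, a value given with no test, since these libraries were picked after the values were seen and hold the highest Scram and the lowest shSLX4IP value of Rpl30.

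A transcript model on the other strand, D730044K07Rik, annotated without a coding sequence, shares 616 exonic bases with Rpl30, 20.4% of its exonic length. It was at 748, 348 and 367 in the Scram libraries and at 99.6, 21.5 and 143 in the shSLX4IP libraries. In contrast to Rpl30, shSLX4IP C was the highest of its group there. The difference did not pass (log2 fold change -2.74, SE 0.77, limma adjusted p = 0.0540). Exons of Rpl30 also hold a snoRNA on the same strand, Gm24523, with 132 shared bases. Gm24523 was under the filter, at 0.911 to 3.74 in Scram and 0 to 0.906 in shSLX4IP.

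**Figure D2:**
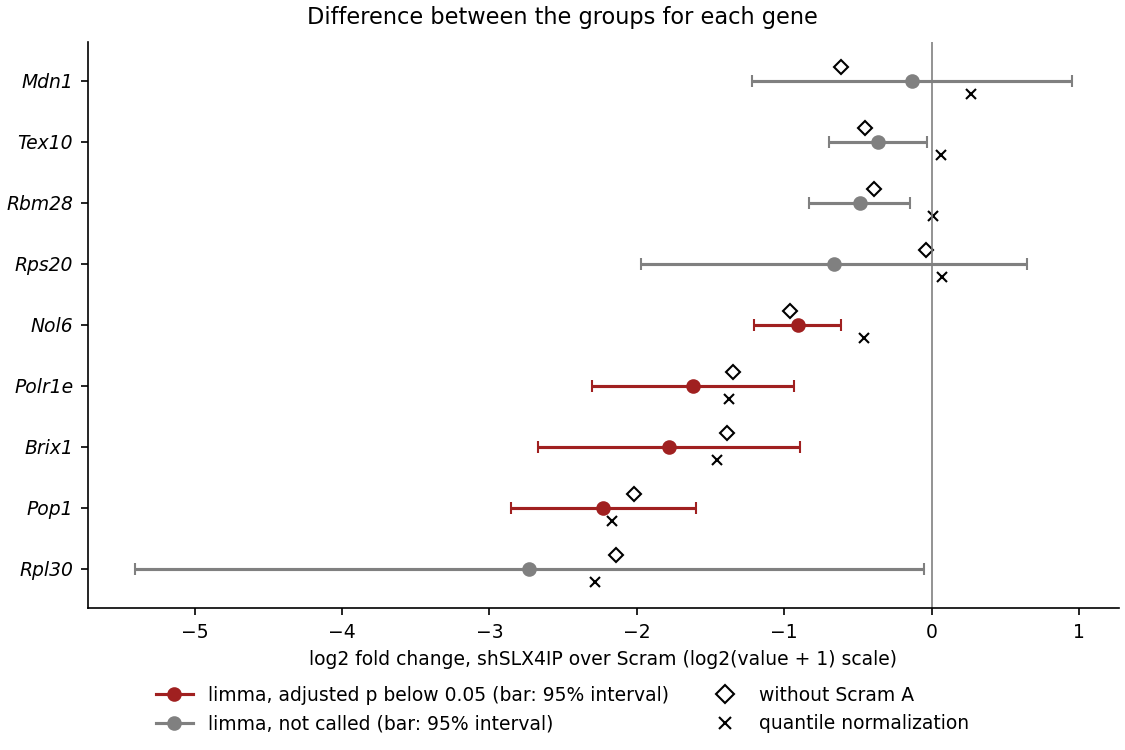
Log2 fold change of each gene, shSLX4IP over Scram (x axis), with the 95% interval of the limma fit over all 6 libraries, in red where the adjusted p was below 0.05, and with diamonds and crosses for the values without Scram A and after quantile normalization. The intervals of 7 genes lie below 0, of which Pop1, Brix1, Polr1e and Nol6 passed after adjustment, those of Rps20 and Mdn1 span 0, and Rps20, Rbm28, Tex10 and Mdn1 move to 0.01 to 0.27 after quantile normalization.

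The distance of Scram A from Scram B and C went with the length of the gene. Among 320 placed nuclear protein-coding genes with a mean of at least 100, Scram A was at a median of 1.66 times the mean of Scram B and C in the 106 with the shortest coding sequence (153 to 1056 bases), 1.04 times in the 107 of middle length and 0.825 times in the 107 longest (1929 to 16746 bases). Rps20 (357 coding bases) and Rpl30 (345) stood above 98.1% and 97.2% of these genes in this ratio. Mdn1, at 0.360 times, stood above 2.81%. Brix1 was at 2.28 times, Polr1e at 1.76, Pop1 at 1.53, Rbm28 at 1.23, Nol6 at 0.902 and Tex10 at 0.837. The same length classes had a median log2 fold change of -0.60, -0.13 and 0.03 from shortest to longest. With a trend over exonic length taken out of each library, Pop1, Nol6, Polr1e and Brix1 kept their calls, at log2 fold changes of -2.04, -0.86, -1.45 and -1.45. Tex10 was not called (-0.24, limma adjusted p = 0.282), and Rps20 was at -0.50 (adjusted p = 0.454). A trend over coding length, chosen after the values were seen, kept the same 4 calls, at -2.29, -0.99, -1.50 and -1.57. Under that trend Tex10 passed (-0.44, adjusted p = 0.0426) and Rps20 was at -0.01, so both values depended on which length was used. Mdn1, at -0.13 with no trend removed, was at -0.62 with the exonic trend removed (limma adjusted p = 0.120). With the coding trend removed it was at -0.46 (limma adjusted p = 0.0803), and it was not called in either. The part of RNA quality in this pattern was not tested.

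**Figure D3:**
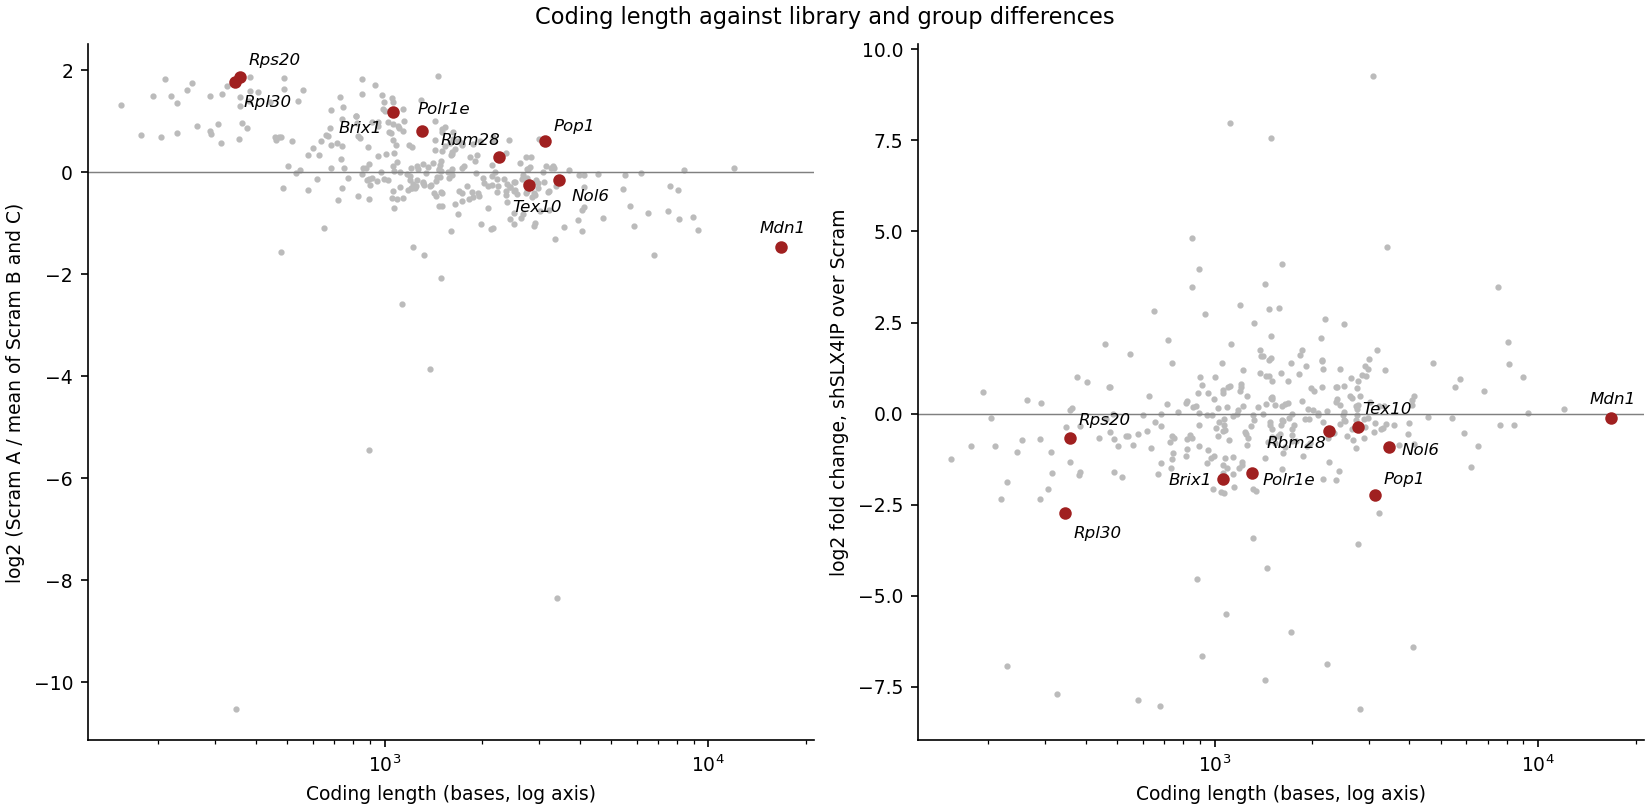
Coding length of 320 placed nuclear protein-coding genes (x axis, log scale) against the log2 of Scram A over the averaged other Scram libraries (left) and the log2 fold change between the groups (right), 1 point per gene, with the 9 genes in red. Most short genes lie above 0 on the left, Rps20 and Rpl30 among the highest, and Mdn1 is the longest gene and well below 0.

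The levels of the 9 genes are given next per kilobase of coding sequence, since longer genes collect more reads. In shSLX4IP the mean level was 82832 for Rps20, 10936 for Rpl30, 1249 for Rbm28, 807 for Tex10, 804 for Brix1, 542 for Nol6, 452 for Polr1e, 149 for Mdn1 and 77.1 for Pop1. Tex10 and Brix1 overlapped in their 3 values and each other neighbour in that order was separate. In Scram the mean level was 160135 for Rps20 and 56082 for Rpl30, then 2997 for Brix1, 1762 for Rbm28, 1435 for Polr1e, 1044 for Tex10, 1019 for Nol6, 367 for Pop1 and 182 for Mdn1. There, Rps20 overlapped Rpl30 and the genes from Brix1 to Nol6 each overlapped the next. On this scale Brix1 stood first among the non-ribosomal-protein genes in Scram, and in shSLX4IP it stood behind Rbm28 and level with Tex10. Untranslated bases are left out of these lengths. Of the 2664 bases of the Brix1 transcript used, 1059 are coding, against 2784 of 3203 for Tex10, so their order depends on the length chosen. For Rps20, 357 of 3706 bases are coding, and for Rpl30 345 of 886, so the distance between Rps20 and Rpl30 depends on it too. The order and the separation of neighbours given above therefore hold for coding length only.

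Of 420 names on 8 lists of ribosome and translation genes, 17 were placed and tested, the 9 members among them. The other 8 all had a negative log2 fold change (median -1.09), as did 270 of the 462 placed features and 3512 of all 8127. Of the 8, 1 was called lower and 0 higher, a share no larger than the 22.9% of placed features called lower. Over all features 11.3% were called lower. Zfp622, the mammalian counterpart of the yeast factor Rei1 of late large subunit maturation, fell from 4420 ± 1948 to 1804 ± 53.3 (log2 fold change -1.21, SE 0.31, limma adjusted p = 0.0410). Its libraries were at 6653, 3063 and 3546 in the Scram libraries and at 1742, 1835 and 1833 in the shSLX4IP libraries. Groups did not overlap in 7 of the 8, Rmrp being the exception, against 39.4% of placed features and 23.4% of all features lower without overlap. The lists too were chosen with earlier results known, so these shares are a description.

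Rpp25l, related to the RNase P and MRP subunit RPP25, was at 3772, 1057 and 1372 in the Scram libraries and at 604, 629 and 510 in the shSLX4IP libraries (limma adjusted p = 0.0668). Exosc3, of the RNA exosome cap, was at 4624, 2135 and 2618 in Scram and at 1408, 1698 and 1459 in shSLX4IP (adjusted p = 0.0757). In both genes Scram A was the highest library, and neither gene passed. Exons of Exosc3 share 53 bases with those of Dcaf10 on the other strand. Dnajc21, a chaperone of cytoplasmic large subunit maturation next to Brix1, had a log2 fold change of -0.56 (adjusted p = 0.107), Mrpl50 of the mitochondrial ribosome -0.49 (adjusted p = 0.169) and Pabpc1, the poly(A)-binding protein, -0.14 (adjusted p = 0.370). Pabpc1 was nearly level, at 31504 to 37204 in Scram and 30389 to 30794 in shSLX4IP. Polr2k, a small subunit shared by the 3 nuclear RNA polymerases, was at 126, 58.9 and 54.7 in Scram and at 21.7, 16.6 and 0 in shSLX4IP (adjusted p = 0.116). Rmrp, the RNA of RNase MRP, lacks a poly(A) tail and was near the floor of these poly(A) libraries. It was at 7.47 to 65.9 in Scram and 5.44 to 13.5 in shSLX4IP (limma adjusted p = 0.330). Of its exonic length, 45.8% is shared with Ccdc107 on the other strand. Another annotated entry of Rmrp covers all of it on the same strand and was at 0 in all 6 libraries.

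**Figure D4:**
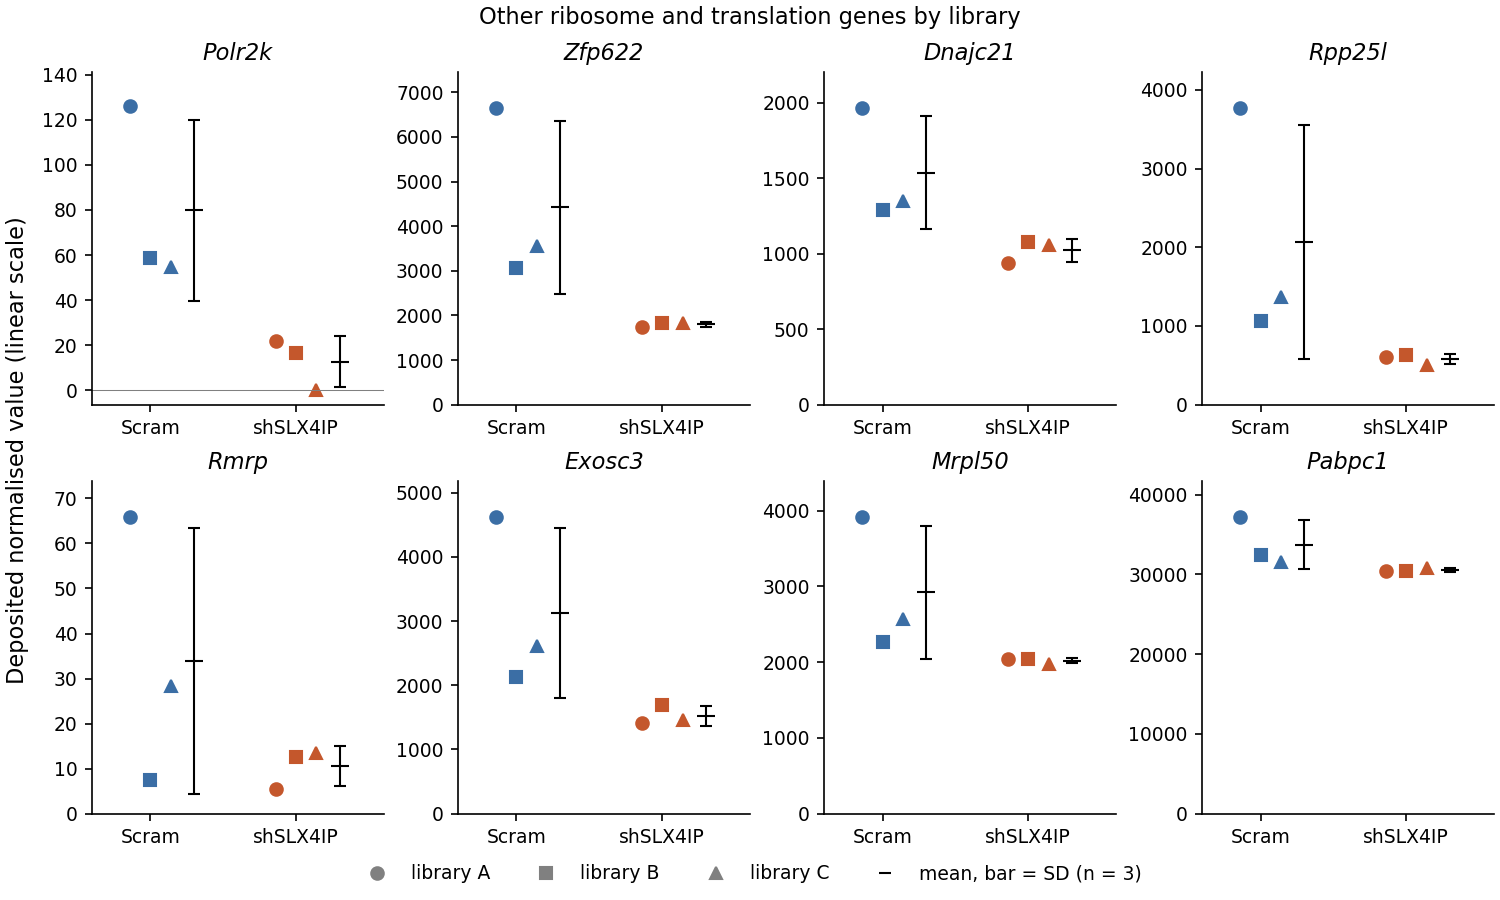
Deposited normalised value (y axis, linear) of the 8 other placed ribosome and translation genes in the 6 libraries, with circles, squares and triangles for libraries A, B and C and the mean with its SD (n = 3). Scram A is the highest library in each of the 8, and the shSLX4IP libraries lie below all Scram libraries in each gene other than Rmrp.

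The placed features whose values went most closely with each member over the 6 libraries were found by Pearson correlation of log2 values, as a description over 6 points that share group and library. Brix1 and Rbm28 had the same pair, Sec61b, a subunit of the translocon of the endoplasmic reticulum (r = 0.999 and 0.998), and Ptgr1, a prostaglandin reductase (0.998 for both). Pop1 went with Tars, a threonyl-tRNA synthetase (0.997), and Nbn (0.994), Nol6 with Col1a2 (0.997) and Snx30 (0.996), and Polr1e with mt-Nd3 (0.999) and Zfp706 (0.992). Rps20 went with Hint2 and Zcchc7 (0.998 and 0.997), Tex10 with Tgs1 and Rad23b (0.990 and 0.989) and Mdn1 with Lmbrd2 and Tmem64 (0.994 and 0.992). The nearest to Rpl30 were Polr2k (0.988), which was listed at 0 in shSLX4IP C, and Spag1 (0.968). Gene models without a name of their own (Gm and Rik symbols) were left out of this search.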

How the data were processed

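Poly(A) RNA (1 µg of total RNA) of 6 libraries was sequenced. Per the submitters' processing notes, the tools were STAR 2.7.7, DESeq2 1.22.1, fastp 0.19.5 and StringTie 2.1.7 with the build GRCm38 (mm10). No source used here gives their roles, the annotation or the strand setting. As deposited by the authors, each value is a signal, a read count over 1 size factor per library. After division by the value of 1 read, 99.98% to 100% of the values above 0 in each library lay within 0.1 of a whole number, and these recovered counts were tested as an alternative. Columns carry letters that the labels do not tie to replicate numbers.

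Of 53647 identifiers, 52094 matched GENCODE M21 without version. Placed genes lie in 4 segments where protein-coding genes scored 3 for a mean of at least 1000 and -1 otherwise, with a segment score of at least 30 (next highest 18), or are mitochondrial. Features with a mean of at least 10 were put through the 2-sided test of limma 3.58.1 under R 4.3.3, with its trend over intensity, on log2(value + 1). Alternatives used edgeR 4.0.16 and DESeq2 1.42.0 on recovered counts, and 21 settings in all, of which 3 were added after the values were seen. On simulated reads of 8127 features limma called 58 of 100 changed 16-fold and 9 of 100 changed 4-fold, with 10 false calls. The changed features were drawn from all tested features whatever their level, and the length pattern of Scram A was not simulated. These counts therefore do not give the share of changes that would be called among genes at the level of the members. Copies were sought with BLAST 2.17.0. Members and lists were chosen with earlier results of these data known. Named genes were the members, placed genes of the lists, exon overlap partners and the 2 placed features most like each member; Rad1 was added after its values were seen. Transcript coordinates are GENCODE M21.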

Additional observations from a re-analysis of the deposited data

How the results depend on the processing

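Of the members, 4 were lower in shSLX4IP and 0 higher. The count lower was 7 with DESeq2, 7 with Scram A and shSLX4IP C both left out (chosen after the values were seen, as the extremes of Rpl30), and 2 to 7 with 1 library left out, and 3 to 5 in the settings other than these and the replicate block. The count higher was 0 in all 21 settings. With the replicate block by column letter 1 member, Pop1, was called (adjusted p = 0.0387), and over all features the calls went from 952 higher and 920 lower to 365 and 309. Libraries with the same letter did not deviate together (correlations -0.02, -0.01 and -0.0007). That gives no sign of pairing by letter, but it cannot show that such libraries were prepared apart. DESeq2 called 1602 features higher and 1624 lower, and leaving out Scram A gave 1895 and 1573. Leaving out 1 of the others gave 433 to 1064 and 410 to 879. In the remaining planned settings that tested all features, the count lower ran from 756 (limma without the trend) to 1269 (quantile normalization). For the 3 settings added later no count over all features was taken. Counts of members are to be read beside these, and the cause of the shifts was not tested. Log2 fold changes turned positive for Mdn1 after quantile normalization (0.27), without Scram B (0.23) and with reads scaled to library totals (0.21), and after quantile normalization for Rps20 (0.069), Tex10 (0.063) and Rbm28 (0.0089). Quantile normalization moved the median of all features from 0.25 to -0.0028 and that of the members from -0.91 to -0.46, and scaling to library totals moved them to 0.58 and -0.56. Mdn1 passed in 1 setting, without Scram A, at -0.62. Recovered reads set the counting limit, which is lowest for Pop1 at 231 reads.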

Other observations

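Genes that overlap Polr1e and Tex10 on the other strand were higher in shSLX4IP. Polr1e fell, Tex10 was not called, and the difference between each pair was not tested. Fbxo10, an F-box protein gene whose body overlaps the end of Polr1e on the other strand without shared exons, rose from 806 ± 149 to 1662 ± 69.7 (SD over 3 libraries), a log2 fold change of 1.06 with an SE of 0.19 (limma adjusted p = 0.0135). Its Scram libraries were at 637, 916 and 865 and its shSLX4IP libraries at 1691, 1711 and 1582. Invs, the ciliary gene inversin, which shares exonic bases with Tex10, was at 473, 626 and 603 in Scram and at 1912, 1798 and 2006 in shSLX4IP. Both genes were higher in each shSLX4IP library than in any Scram library.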
